A study of Mus musculus with 11 samples.

Results

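The genes described here are 10 members of the heat shock protein system: 7 genes of the HSP70 superfamily (Hspa2, Hspa1l, Hspa8, Hspa4, Hspa4l, Hspa5 and Hspa9), both cytosolic HSP90 genes (Hsp90aa1 and Hsp90ab1) and the heat shock factor Hsf2. They were taken by symbol from the table of unique molecular identifiers (UMIs, random tags that mark the original RNA molecules), and all 10 were among its 20265 nuclear genes. They were followed in male germ cells of the adult mouse testis, over 13 stages from the earliest spermatogonia measured to late pachytene. Members of the same protein class took different courses. Hspa2 and Hspa4l, both enriched in testis, rose over the stages as shares of all UMIs, whereas Hspa8 and Hsp90ab1, constitutive members of the cytosol, fell.

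HSP70 proteins bind unfolded stretches of other proteins in cycles driven by ATP, HSP40 proteins hand clients to them, and HSP110-type proteins such as HSPA4 and HSPA4L exchange their nucleotide. HSP90 proteins take over many of these clients at a later step, and heat shock factors bind the promoters of many of these genes. In the testis, HSPA2 is the HSP70 of spermatocytes, and male mice that lack it are infertile because their spermatocytes do not complete the meiotic prophase.

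The series profiled single cells from the testes of 3 untreated adult mice, all of which carried a Dazl-GFP reporter, and only live cells with reporter fluorescence were sorted. Dazl is a gene of germ cells, so the sort selects for germ cells and the other cells of the testis are not represented by design. Mouse 1 gave 8 libraries with CEL-Seq1 primers, mouse 2 gave 1 library and mouse 3 gave 2 libraries with CEL-Seq2 primers, so protocol and mouse cannot be told apart. There is no treated group and no control group: stages are compared within animals, and the 3 animals are the replicates.

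Of 1920 wells, 1448 held at least 1000 UMIs and were kept as cells (75.4%, exact 95% confidence interval 73.4 to 77.3), with a median of 9830 to 16275 UMIs per cell in the 3 mice. Kept cells were clustered on genes of odd-numbered autosomes from which every member had been removed, and 13 clusters with 1263 cells were ordered as stages. Under a marker rule, stages 2 to 4 were differentiating spermatogonia-like and stage 5 preleptotene-like. At stage 5 Rec8 was the only preleptotene marker among the leading genes. Stages 7 to 9 were leptotene or zygotene-like and stages 11 to 13 pachytene-like. Stage 1 (led by Sdc4, Egr4 and Zfp462), stage 6 (led by Stra8) and stage 10 (led by Gnas, Gml and Hemt1) had no name under the marker rule. Stages differed in depth: the median UMIs per cell, averaged over mice, fell from 27078 in stage 1 to 5762 in stage 8 and then reached 92410 in stage 13. Markers of elongating spermatids summed to at most 1329 UMIs per 1000000 nuclear-gene UMIs (CPM; stage 4) and markers of Sertoli cells to at most 791 (stage 6, of which Ctsl made up 66.9% over all stages). Markers of Leydig, myoid, endothelial and erythroid cells and of macrophages stayed at or below a stage mean of 17.4 CPM, with Lhcgr and Hba-a1 at 0. Preleptotene markers summed to a mean of 1222 CPM at stage 5, near the 1170 CPM of stage 2 and below the 3435 CPM of stage 6. Markers of differentiating spermatogonia summed to 1810 CPM at stage 5 and 2071 CPM at stage 4, so the name of stage 5 is uncertain.

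Levels are given in CPM for the summed cells of a mouse and stage. Each molecule is counted once at its 3' end, so levels were not divided by transcript length. Together the members held 0.725% of all UMIs in stage 1 (7251 ± 1604 CPM, SD, n = 3), 1.74% in stage 9 (17383 ± 4306 CPM) and 0.941% at stage 13. At stage 1 the order of mean levels was Hsp90aa1 (2416 CPM), Hsp90ab1 (1674 CPM), Hspa8 (1557 CPM), Hspa4 (516 CPM), Hspa5 (494 CPM), Hspa9 (271 CPM), Hspa4l (147 CPM), Hspa2 (121 CPM), Hsf2 (46.8 CPM) and Hspa1l (8.16 CPM). At stage 13 it was Hsp90aa1 (5170 CPM), Hspa2 (1633 CPM), Hspa4l (814 CPM), Hspa5 (440 CPM), Hsp90ab1 (430 CPM), Hspa4 (337 CPM), Hspa9 (332 CPM), Hspa8 (240 CPM), Hsf2 (14.4 CPM) and Hspa1l (1.89 CPM). The neighbours Hsp90ab1 and Hspa8, Hspa4 and Hspa5, and Hspa4l and Hspa2 at stage 1 differed by less than their SD over mice, as did Hspa5 and Hsp90ab1, and Hspa4 and Hspa9, at stage 13.

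Between the latest and the earliest stage, 4 of the 9 members that could be tested were higher (Hspa2, Hspa4l, Hsp90aa1 and Hspa9) and 3 were lower (Hspa8, Hsp90ab1 and Hsf2), by edgeR's quasi-likelihood test with an adjusted p under 0.05. Over all 11156 genes tested, 37.3% were higher and 37.3% were lower, so a change between these stages is common. Hspa1l was too low for the test. All 9 members changed over the stages as a whole, as did 95.9% of all genes. Ranked by that test among the 11156 genes, Hspa5 stood at 24, Hspa2 at 165 and Hspa4l at 303. Hspa8 stood at 777, Hsp90ab1 at 907, Hspa4 at 4103, Hspa9 at 4247, Hsp90aa1 at 4682 and Hsf2 at 6297. By CPM, the stage 1 and stage 13 values of the 3 mice did not overlap for 8 of the 10 members, against 67.4% of all genes tested. The exceptions were Hspa5 and Hsp90aa1. The 8 include Hspa1l, which was not among the genes tested and had only 13 UMIs at stage 1 and 16 at stage 13.

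Scale matters for the smaller changes. edgeR's TMM factors, which are set so that most genes do not change, were lower by 0.41 ± 0.24 on the log2 scale at stage 13 than at stage 1 (SD, n = 3). A log2 difference from edgeR is therefore higher by about that amount than the difference in plain CPM. Hspa5 at stage 13 was below its stage 1 level by CPM in each of the 3 mice, at 0.764, 0.969 and 0.908 times that level, whereas its edgeR log2 difference was 0.20 ± 0.16 (SE). With size factors from median ratios the median gene shifted by -0.23, and with spike-in RNA as the library size it shifted by 1.33, with 6954 genes higher and 2205 lower in place of 4158 and 4164. Under the spike-in scale 6 members were higher and Hspa8 alone was lower.

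Against stage 1, members were called from stage 3 on, and the most were called at stage 8. At stage 2 no member was called, against 18.4% of all genes. At stage 3, 1 member was higher (all genes 17%) and 0 lower (16.7%). At stage 4, 3 members were higher (21.8%) and 0 lower (20.2%), and at stage 5 again 3 higher (17.3%) and 0 lower (18.8%). The members called lower first appeared at stage 6, with 3 higher (23.2%) and 4 lower (26.1%). At stage 7, 4 were higher (18.4%) and 4 lower (31%), and at stage 8, 4 were higher (23%) and 5 lower (30.5%). At stage 9, 4 were higher (27.5%) and 3 lower (31.7%). Stage 10 had the most members higher, 5 (31.2%), with 3 lower (35.5%). At stage 11, 4 were higher (35.3%) and 4 lower (36.1%), and at stage 12, 4 were higher (36.6%) and 4 lower (37.6%).

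**Figure D1:**
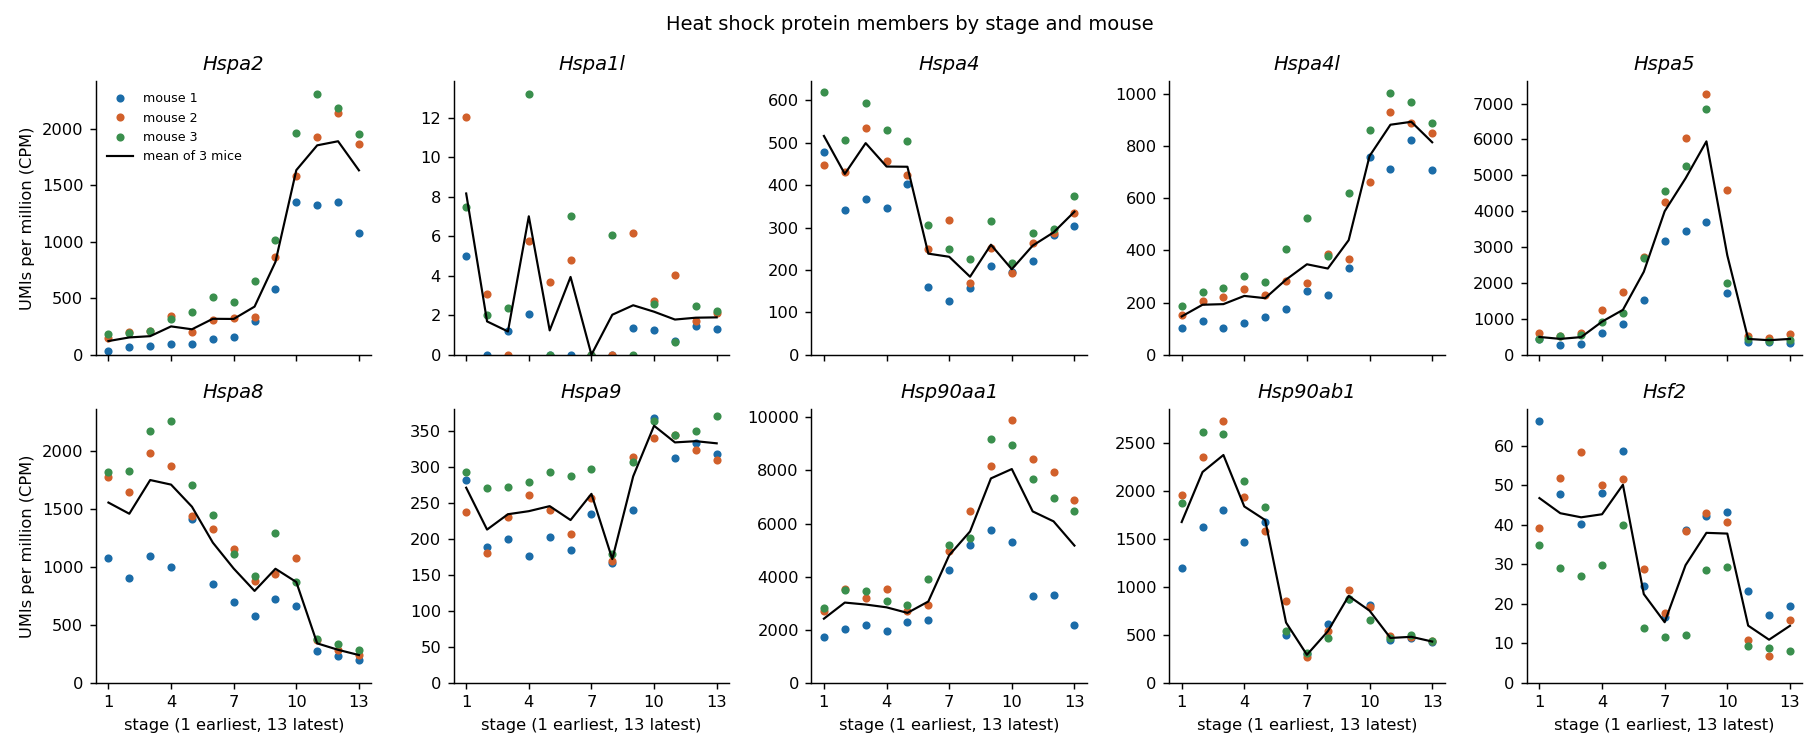
Levels of the 10 members in CPM (vertical axis, linear and starting at 0) at each of the 13 stages (horizontal axis), with 1 point per mouse and the mean of 3 mice as a black line. Hspa2 and Hspa4l are highest after stage 9, Hspa5 has a single peak with its highest mean of 5945 CPM at stage 9, and Hspa8 is lowest at stage 13.

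**Figure D2:**
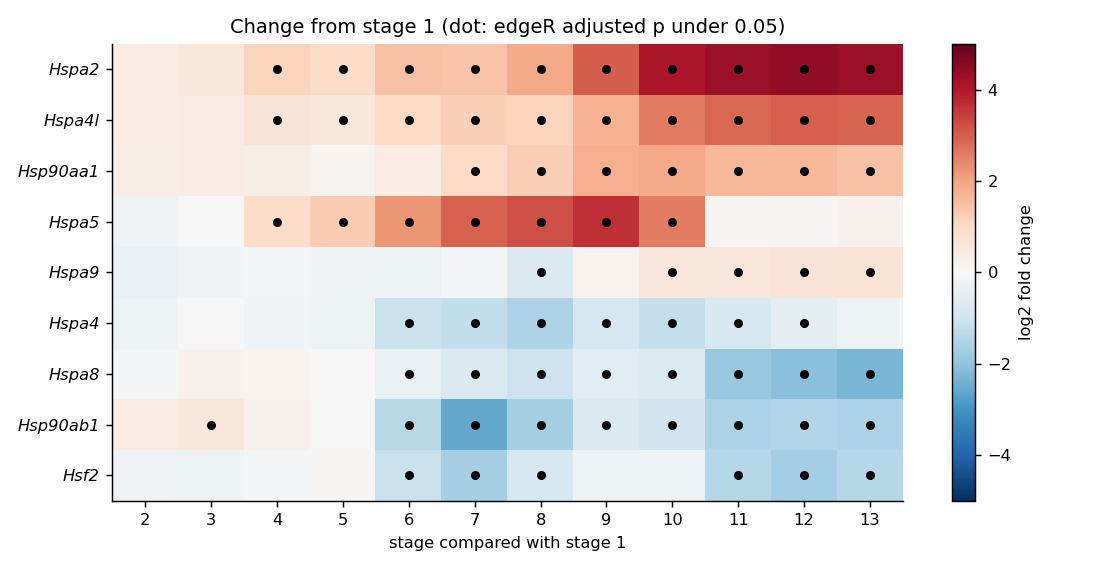
log2 fold change of each tested member (rows) at stages 2 to 13 (columns) against stage 1 from the edgeR fit, with red for higher, blue for lower and a dot where the adjusted p was under 0.05. Hspa2 and Hspa4l carry dots from stage 4 on, Hspa5 from stage 4 to stage 10, and Hspa8 and Hsp90ab1 are lower from stage 6 on, all by share; per spike-in RNA the calls of Hspa2 before stage 9, Hspa4l before stage 10 and Hspa5 before stage 6 were lost.

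Hspa2 encodes the HSP70 of spermatocytes, which in late prophase helps to take the synaptonemal complex apart and to assemble CDK1 with cyclin B1. The gene lies at chr12:76404176-76406938 on the + strand (GRCm38). The 80 bases before its RefSeq start (chr12:76404290-76404369, + strand, GRCm38.p6) are shown because they hold the single CCAAT box of this stretch. The capitals mark the box, read on the opposite strand as ATTGG. These bases lie inside the gene span above, which is from GENCODE and begins further upstream than the RefSeq start.

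Hspa2: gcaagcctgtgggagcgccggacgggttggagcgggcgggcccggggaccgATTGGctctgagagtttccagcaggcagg

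Hspa2 had 33.2 CPM in mouse 1, 144 in mouse 2 and 186 in mouse 3 at stage 1. At stage 9 the 3 mice had 586, 863 and 1017 CPM, and at stage 13 they had 1076, 1866 and 1957 CPM. Every stage 13 value lay above every stage 1 value, and mouse 1 was the lowest at both ends. The highest mean, 1891 ± 470 CPM at stage 12, was 15.6 times the mean at stage 1 (121 ± 78.9 CPM). In log2, Hspa2 was higher by 4.27 ± 0.23 (SE) at stage 13 than at stage 1 (edgeR, adjusted p = 1.26e-19), in 3 of 3 mice.

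The rise of Hspa2 was called at every stage from 4 to 13. At stage 4 the log2 difference from stage 1 was 1.11 ± 0.23 (edgeR, adjusted p = 1.28e-04). The call at stage 5 was lost without mouse 3 (0.85, adjusted p = 0.0869) and without the gate-sorted library of mouse 3 (0.49, adjusted p = 0.198). Of the 12 steps between neighbouring stages, 2 were called: from 8 to 9 by 1.12 ± 0.21 (edgeR, adjusted p = 1.13e-04) and from 9 to 10 by 1.06 ± 0.19 (adjusted p = 3.28e-05). Neither step was called in a fit without the mouse as a block (edgeR, adjusted p = 0.192 and 0.19), while leaving out any mouse kept both. Per spike-in RNA the calls at stages 4 to 8 were lost, with differences from stage 1 of -0.39 to 0.29. No later step between neighbours was called by share, whereas per spike-in RNA the step from 10 to 11 was (1.33, adjusted p = 1.89e-06).

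The share of cells with at least 1 Hspa2 UMI also rose after each cell was thinned to 2000 UMIs, which sets all cells to equal depth. In mean over mice it went from 25.2% ± 17.5 in stage 1 (SD, n = 3; 82.7% before thinning) to 56.8% ± 13 in stage 8 and 97.4% ± 2.44 in stage 10. No cell class in these libraries is known to lack the gene, so none gives a background share to set beside these. The wells left out for too few UMIs did hold Hspa2, at 1224, 1339 and 2320 CPM in mice 1, 2 and 3. These were 109, 42 and 137 UMIs. The kept cells of the same mice had 888, 1233 and 1565 CPM. Whether the Hspa2 UMIs of those wells are background, and the part of background in the shares at early stages, was not tested. The 12 pachytene markers summed to 460 CPM at stage 1 and 6988 CPM at stage 13; their part in the low Hspa2 level of stage 1 was not tested.

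Hspa8 encodes HSC70, the constitutive HSP70 of the cytosol in most cells. Its gene (chr9:40800984-40810087, + strand) contains 3 small nucleolar RNA genes on the same strand. Of the 50-base windows in the last 500 bases of its transcript, 81.8% also occur in 11 other genes, such as Gm15459. How reads were divided among these copies is not known, so the Hspa8 counts are uncertain in that respect.

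Hspa8 had 1076, 1777 and 1817 CPM in mice 1, 2 and 3 at stage 1. At stage 10 the mice had 660, 1082 and 869 CPM, at stage 11 they had 275, 372 and 375 CPM, and at stage 13 they had 196, 241 and 282 CPM. Stage 13 was the lowest stage in each mouse, and its values did not overlap those of stage 1. The log2 difference between these stages was -2.27 ± 0.13 (SE; edgeR, adjusted p = 1.94e-18). The largest single step was from stage 10 to 11, where Hspa8 fell by 1.24 ± 0.13 (edgeR, adjusted p = 1.28e-09). Per spike-in UMI this step was not called (-0.14, adjusted p = 0.507), whereas the whole change from stage 1 to 13 remained lower at -0.98 ± 0.52 (SD, n = 3). Before that step Hspa8 was called lower than at stage 1 from stage 6 on, with the call at stage 6 lost without mouse 2 (adjusted p = 0.122) or mouse 3 (adjusted p = 0.0988).

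Hspa1l encodes an HSP70 known from spermatids. It lies at chr17:34972703-34979285 on the + strand and overlaps Gm10501 on the other strand. It had 93 UMIs in 63 of the 1448 kept cells (4.35%). Summed over the mice it had 7.48 CPM in stage 1, 7.59 CPM in stage 4 and 1.82 CPM in stage 13. Of the 20 UMIs of stage 4, 15 came from mouse 3, where 5.08% of 59 cells had any. Stage 4 is also where the elongating spermatid markers were highest, and without the 9 cells there that were rich in spermatid or Sertoli markers Hspa1l had 4 UMIs (1.62 CPM). At stage 7 it had 0 of 404827 UMIs, which allows up to 7.41 CPM at a floor of 3 counts; such floors and the binomial intervals cover counting error only. Without a filter on low counts its log2 difference between stages 13 and 1 was -1.47 ± 0.79 (edgeR, adjusted p = 0.113), so a change was not detectable at this depth.

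Hspa4l and Hspa4 encode HSP110-type partners of HSP70. Hspa4l (chr3:40744495-40796103, + strand) is the member of this pair that is enriched in testis, and male mice without it have reduced fertility. It had 103, 150 and 187 CPM in mice 1, 2 and 3 at stage 1. At stage 9 the mice had 330, 366 and 620 CPM, at stage 10 they had 758, 663 and 862 CPM, and at stage 13 they had 707, 849 and 886 CPM. The stage 10 values of all 3 mice lay above all stage 9 values. The log2 difference between stages 13 and 1 was 2.90 ± 0.16 (SE; edgeR, adjusted p = 1.29e-19). The step from stage 9 to 10 was 0.88 ± 0.14 (edgeR, adjusted p = 4.83e-06). Hspa4l was called higher than at stage 1 from stage 4 on. The call at stage 4 was lost without mouse 3 (adjusted p = 0.0606), and the call at stage 5 was lost without mouse 1, 2 or 3 (adjusted p = 0.0565, 0.139 and 0.137). Per spike-in RNA the calls of Hspa4l at stages 4 to 9 were lost, and it was called lower than at stage 1 in stage 5 (-0.80, edgeR, adjusted p = 0.00188) and stage 8 (-0.80, adjusted p = 0.00144).

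Hspa4 (chr11:53259814-53300457, - strand) fell by share from stage 5 to stage 6, a step at which Hspa4l was not called. Hspa4 had 402, 424 and 504 CPM in mice 1, 2 and 3 at stage 5 and 159, 250 and 306 CPM at stage 6. These values did not overlap, and the step was -0.86 ± 0.16 in log2 (edgeR, adjusted p = 6.71e-05). The lowest mean was 184 ± 35.7 CPM at stage 8, against 516 ± 92.1 at stage 1. It was lower than at stage 1 at the 7 stages from 6 to 12, where the call at stage 12 was lost without mouse 3 (adjusted p = 0.0609). Per spike-in RNA Hspa4 was not called at stage 11 (0.06) and was higher than stage 1 in stage 12 (0.46, edgeR, adjusted p = 0.0236). At stage 13 it had 304, 333 and 374 CPM. The latest and earliest stages did not overlap by CPM (479, 448 and 621 at stage 1), but the edgeR difference of -0.21 ± 0.13 was not called (adjusted p = 0.143). It was called lower under 9 of 18 other settings, among them without mouse 2 (-0.49, adjusted p = 0.0106), and was higher per spike-in RNA (1.09).

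Hspa5 encodes BiP, the HSP70 of the endoplasmic reticulum and a textbook target of the unfolded protein response. It lies at chr2:34771970-34777547 on the + strand. Its promoter is shown because Hspa5 alone, of the 6 members with a promoter in the RefSeq table (GRCm38.p6), holds the endoplasmic reticulum stress element, which reads CCAAT, then any 9 bases, then CCACG. This was searched on both strands from 250 bases before to 50 after the start, and is present in 0.113% of 32851 promoters. The element with 5 bases on each side lies at chr2:34772020-34772048 (+ strand, capitals), and the stretch upstream of it at chr2:34771840-34771969 holds further CCAAT boxes (capitals, on either strand). The element lies inside the gene span given above, which begins further upstream than the RefSeq start.

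Hspa5 element: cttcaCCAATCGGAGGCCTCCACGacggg
Hspa5 upstream: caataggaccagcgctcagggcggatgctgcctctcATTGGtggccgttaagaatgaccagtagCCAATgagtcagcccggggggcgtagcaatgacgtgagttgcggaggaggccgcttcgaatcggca

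A match describes the letters only. CCAAT was found in 4 of the 6 member promoters and in 33.8% of all promoters. The heat shock element, which reads GAA, any 2 bases, TTC, any 2 bases and GAA, was in 0 of the 6 and in 0.466% of all, and its shorter forms GAANNTTC and TTCNNGAA were in 0 of the 6 and in 6.69% and 7.17% of all. No promoter is given for Hspa8, Hspa9, Hsp90aa1 and Hsp90ab1.

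Hspa5 rose to a peak and then came back by share to the range of stage 1. It had 439, 592 and 451 CPM in mice 1, 2 and 3 at stage 1. At stage 6 the mice had 1516, 2719 and 2696 CPM, and at stage 9 they had 3710, 7276 and 6848 CPM. Stage 9 was the highest stage in each of the 3 mice. At stage 10 the mice had 1707, 4597 and 2004 CPM, and at stage 11 they had 363, 528 and 428 CPM. The mean at stage 9 (5945 ± 1947 CPM) was 14.7 times the lowest mean, at stage 12 (404 ± 62.9 CPM). The stage 11 values overlapped those of stage 1.

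Against stage 1 the log2 difference of Hspa5 was 0.91 ± 0.16 in stage 4 (edgeR, adjusted p = 9.53e-06), 3.67 ± 0.17 in stage 9 (adjusted p = 1.27e-20) and 0.08 ± 0.16 at stage 11 (adjusted p = 0.664). Per spike-in RNA it was not called at stage 4 (-0.025, adjusted p = 0.925) or stage 5 (-0.13, adjusted p = 0.565), was higher from stage 6 on, and was still higher in stage 11 (0.87, adjusted p = 7.38e-05). It rose at the steps from 3 to 4 by 0.93 ± 0.16, from 5 to 6 by 0.94 ± 0.16, from 6 to 7 by 0.75 ± 0.15 and from 8 to 9 by 0.44 ± 0.15 (edgeR, adjusted p = 9.13e-05, 1.47e-05, 0.00239 and 0.0337). The last of these was lost without mouse 2 (0.36, adjusted p = 0.211) or mouse 3 (0.36, adjusted p = 0.242). It fell by 1.12 ± 0.15 from 9 to 10 and by 2.47 ± 0.16 from 10 to 11 (edgeR, adjusted p = 1.71e-07 and 1.23e-14). Per spike-in RNA the steps from 3 to 4 (0.19, adjusted p = 0.424), from 6 to 7 (0.55, adjusted p = 0.0629) and from 9 to 10 (-0.03, adjusted p = 0.918) were not called, and that from 10 to 11 was -1.35 (adjusted p = 3.42e-08). At stage 13 Hspa5 was not called different from stage 1 (0.20 ± 0.16, edgeR, adjusted p = 0.254); it was called higher per spike-in RNA (1.47) and without mouse 1 (0.39, adjusted p = 0.0289), and was -0.07 without mouse 2. Although no member took part in the clustering, Hspa5 was among the 10 leading genes of stage 9.

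Hspa9 encodes mortalin, the HSP70 of mitochondria, on chromosome 18. Its course was the flattest of the tested members, with a highest mean only 2.08 times the lowest. It had 282, 238 and 293 CPM in mice 1, 2 and 3 at stage 1. The mice had 167, 169 and 179 CPM at stage 8, and 367, 340 and 364 CPM in stage 10. Stage 8 was the lowest stage in each mouse and did not overlap either of the others. The step from 8 to 9 was 0.90 ± 0.15 in log2 (edgeR, adjusted p = 3.13e-05), and stage 13 was 0.69 ± 0.13 above stage 1 (adjusted p = 6.38e-06). By CPM the rise was smaller, with stage 13 at 1.13, 1.30 and 1.26 times stage 1 in mice 1, 2 and 3. With median-ratio size factors the log2 difference was 0.46. The steps from 7 to 8 (-0.60) and from 9 to 10 (0.37) were each lost when any single mouse was left out, and the call at stage 11 was lost without mouse 2 (0.29, adjusted p = 0.126).

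Hsp90aa1 and Hsp90ab1 encode HSP90-alpha and HSP90-beta, the cytosolic HSP90 proteins. Spermatocytes of mice without HSP90-alpha arrest in meiosis, whereas HSP90-beta is the constitutive form of most cells. Hsp90aa1 (chr12:110690605-110702728, - strand) was the most abundant member at every stage by its mean. It had 1725, 2709 and 2815 CPM in mice 1, 2 and 3 at stage 1. The mice had 5313, 9903 and 8945 CPM in stage 10, and 2173, 6881 and 6457 CPM at stage 13. Stages 1 and 10 did not overlap. Stages 1 and 13 overlapped, because mouse 1 at stage 13 was below mice 2 and 3 at stage 1. It was called higher than at stage 1 from stage 7 on, by 1.88 ± 0.23 in log2 at stage 10 (edgeR, adjusted p = 4.2e-09) and 1.46 ± 0.23 at stage 13 (adjusted p = 3.90e-07). Per spike-in RNA the direction turned at stage 7 (-0.72, edgeR, adjusted p = 0.00252) and stage 8 (-0.71, adjusted p = 0.00249), stage 9 was not called (0.42, adjusted p = 0.0743), and stages 10 to 13 were higher. None of its 12 steps between neighbouring stages was called.

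The number of possible UMIs sets a limit on Hsp90aa1 in mouse 1. Its UMIs allow 256 different tags per gene and well, against 4096 in mice 2 and 3, and 255 Hsp90aa1 UMIs were reached in a well of mouse 1. From the collision formula that the authors' transcripts table follows, the share of Hsp90aa1 molecules lost to shared tags in mouse 1 ranged from 5.43% in stage 6 to 68.4% in stage 13, with 27.4% in stage 1. In mice 2 and 3 it was 8.38% and 12.3% at stage 13. After correction mouse 1 had 2221 CPM at stage 1 and 6168 CPM at stage 13, or 2.78 times as much, close to the 2.74 and 2.55 of mice 2 and 3, where the counted values gave 1.26, 2.54 and 2.29. Near the limit of 256 tags the correction is imprecise, so the corrected stage 13 level of mouse 1 is a rough estimate. With corrected counts the log2 difference of Hsp90aa1 between stages 13 and 1 was 1.77, and with reads it was 2.15. The largest losses of other members in mouse 1 were 28.9% for Hspa2 at stage 13, 24.3% for Hsp90ab1 at stage 2 (20% at stage 1), 18.1% for Hspa8 at stage 1, 18% for Hspa4l at stage 13 and 17.9% for Hspa5 at stage 10.

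**Figure D3:**
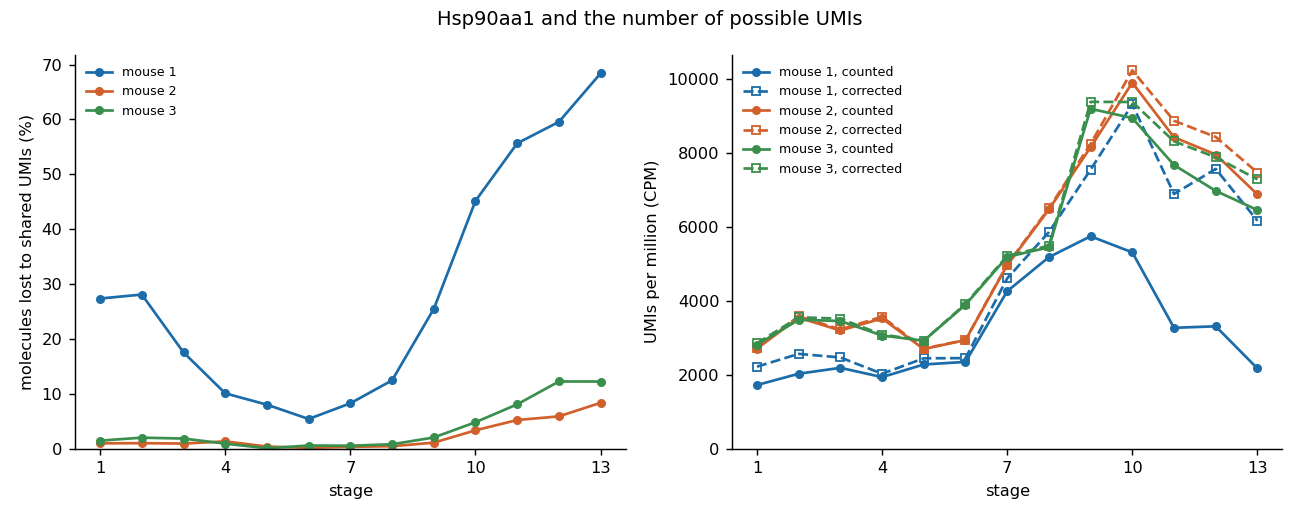
Left, the share of Hsp90aa1 molecules lost to shared UMIs (percent, vertical axis) at each stage in each mouse; right, its level in CPM as counted (filled circles, solid lines) and after correction for collisions (open squares, dashed lines). The loss in mouse 1 reaches 68.4% at stage 13, and after correction its level there is 6168 CPM in place of 2173.

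Hsp90ab1 (chr17:45567775-45573271, - strand) fell from stage 5 to stage 7 and then partly recovered. It had 1673, 1580 and 1831 CPM in mice 1, 2 and 3 at stage 5. The mice had 301, 265 and 308 CPM in stage 7, and 874, 968 and 871 CPM at stage 9. Stage 7 was the lowest stage in each mouse, and the groups at stages 5, 7 and 9 did not overlap. The steps in log2 were -1.42 ± 0.16 from 5 to 6 (edgeR, adjusted p = 1.79e-08), -1.15 ± 0.19 from 6 to 7 (adjusted p = 2.54e-04), 0.90 ± 0.20 from 7 to 8 (adjusted p = 0.00121) and 0.91 ± 0.16 from 8 to 9 (adjusted p = 7.11e-05). Without mouse 2 the steps from 6 to 7 (-0.74, adjusted p = 0.173) and from 7 to 8 (0.81, adjusted p = 0.0625) were lost, and per spike-in RNA the step from 7 to 8 was not called (0.63, adjusted p = 0.0752). At stage 13 it had 421, 435 and 433 CPM against 1194, 1954 and 1873 CPM at stage 1, with a log2 difference of -1.54 ± 0.15 (edgeR, adjusted p = 9.88e-12). Per spike-in RNA that difference was -0.25 and not called (adjusted p = 0.24), whereas stage 7 was lower by 4.23 ± 0.42 (SD, n = 3). Of the windows in the last 500 bases of Hsp90ab1, 7.76% also occur in Gm6368.

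Hsf2 encodes a heat shock factor that is active in developing germ cells without heat. It lies at chr10:57486385-57513135 on the + strand. It was the lowest of the tested members, with 66.3, 39.1 and 34.9 CPM in mice 1, 2 and 3 at stage 1. The mice had 42.3, 43.0 and 28.6 CPM in stage 9, and 19.4, 15.9 and 7.95 CPM at stage 13. The groups at stages 1 and 9 overlapped, and both lay above stage 13. The log2 difference between stages 13 and 1 was -1.41 ± 0.24 (SE; edgeR, adjusted p = 1.83e-06), and the step from 10 to 11 was -1.21 ± 0.24 (adjusted p = 1.59e-04). Per spike-in RNA these values were -0.07 (adjusted p = 0.824) and -0.13, and neither was called. Hsf2 was also lower than at stage 1 at stages 6, 7 and 8, but each of these calls was lost without mouse 1 (adjusted p = 0.117, 0.10 and 0.166).

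Ratios between paired members do not depend on the scale. The log2 ratio of Hspa2 to Hspa8 was -3.96 ± 0.90 at stage 1 (SD, n = 3) and 2.73 ± 0.25 at stage 13. It passed 0 between stage 9 (-0.26) and stage 10 (0.92). Of the Hspa8 windows, 81.8% also occur in other genes, so the level of this ratio, and where it passes 0, is uncertain. The ratio rose by 7.44, 6.56 and 6.08 in mice 1, 2 and 3, a mean of 6.69 ± 0.69. An exact two-sided permutation test, which exchanges the stage labels within each mouse, gave p = 5.27e-06 (adjusted over 3 ratios, 1.58e-05), where the smallest possible p was 5.27e-07. This p sets the gap between the end stages against the gaps between all pairs of stages. It treats neighbouring stages as exchangeable and does not measure the spread over the mice. The same holds for the other ratios below.

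The log2 ratio of Hspa4l to Hspa4 rose from -1.84 ± 0.34 in stage 1 through 0.24 ± 0.14 in stage 6 to its highest mean of 1.91 ± 0.12 in stage 10 (SD, n = 3). It then came down to 1.27 ± 0.07 in stage 13, without overlap between stages 10 and 13. The difference between the latest and earliest stage was 3.43, 2.91 and 2.97 in mice 1, 2 and 3 (exact two-sided permutation p = 0.00138, adjusted 0.00207). The log2 ratio of Hsp90aa1 to Hsp90ab1 was 0.53 ± 0.06 in stage 1, 4.02 ± 0.20 in stage 7 and 3.42 ± 0.91 in stage 13. With counts corrected for collisions, stages 7, 11, 12 and 13 overlapped, with means of 4.07 ± 0.14, 4.10 ± 0.13, 4.05 ± 0.085 and 4.01 ± 0.14. Its difference was 1.84, 3.51 and 3.31 in mice 1, 2 and 3 (mean 2.89 ± 0.91, exact two-sided permutation p = 0.0177, adjusted 0.0177). That call was lost without mouse 2 (2.57, adjusted p = 0.103) and without mouse 3 (2.67, adjusted p = 0.0811), and with the collision-corrected table the difference was 3.43 (adjusted p = 0.00547).

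**Figure D4:**
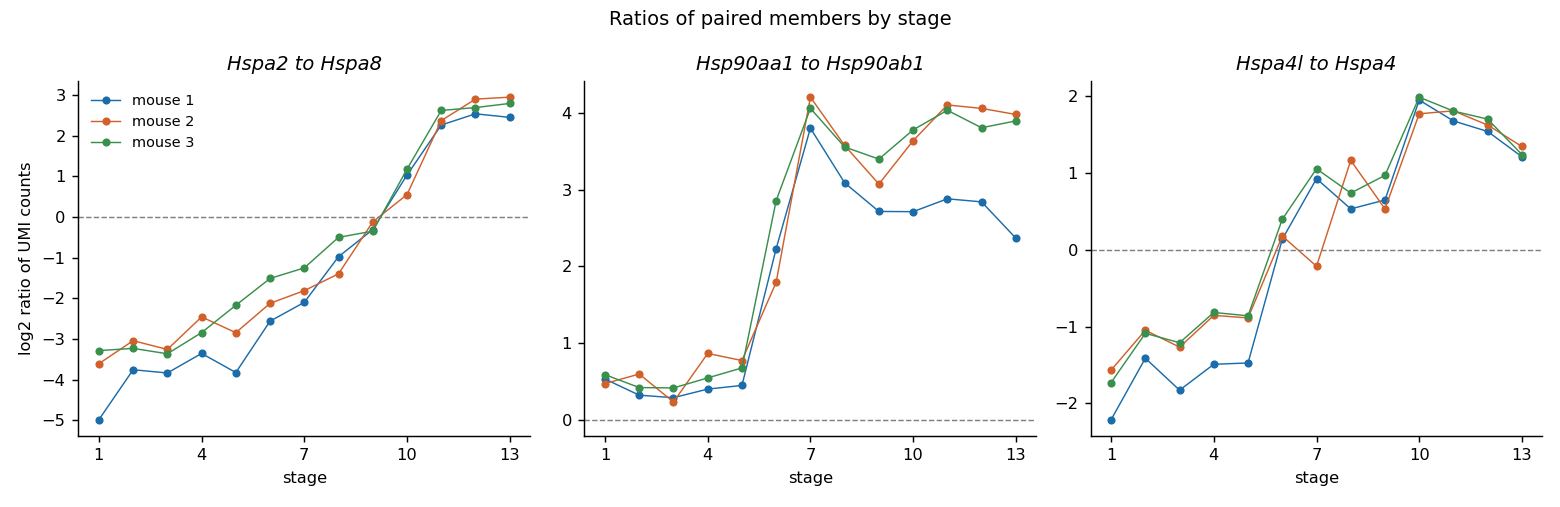
log2 ratio of UMI counts (vertical axis) of Hspa2 to Hspa8, Hsp90aa1 to Hsp90ab1 and Hspa4l to Hspa4 at each stage, 1 line per mouse, with a dashed line at equal counts. Hspa2 to Hspa8 passes 0 after stage 9 in all 3 mice, with Hspa8 counts uncertain because its 3' end is shared with other genes. Hsp90aa1 to Hsp90ab1 has a mean of 4.02 at stage 7. After correction for shared tags its mean is 4.07 at stage 7 and 4.10 at stage 11.

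Across the 12 steps, 25 member steps were called, in 7 of the 12. From stage 8 to 9, 7 of 9 members were higher and none lower, where 11.3% of all genes were higher and 6.03% lower. Hspa2, Hsp90ab1 and Hspa9 kept this call whichever mouse was left out. Hspa4l (0.61 ± 0.16) lost it without mouse 3 (0.42, adjusted p = 0.301). Hspa4 (0.65 ± 0.17) and Hspa8 (0.49 ± 0.14) lost it without mouse 2 (adjusted p = 0.0599 and 0.0726) or mouse 3 (adjusted p = 0.115 and 0.237), as Hspa5 did.

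From stage 10 to 11, Hspa4 alone was higher (0.43 ± 0.14, where 15.3% of all genes were higher), and this was lost without mouse 2 (adjusted p = 0.193) or mouse 3 (adjusted p = 0.281). Hspa5, Hspa8, Hsp90ab1 (-0.59 ± 0.15) and Hsf2 were lower, against 8.71% of all genes. The Hsp90ab1 step turned to higher per spike-in RNA (0.51, edgeR, adjusted p = 0.0186) and was not called with reads (-0.49, adjusted p = 0.068). From stage 5 to 6, Hspa5 was higher (11.2% of all genes) and Hsp90ab1, Hspa4 and Hsf2 (-1.16 ± 0.35) were lower (11.8%); the Hsf2 step was lost without mouse 1 (adjusted p = 0.143) or mouse 3 (adjusted p = 0.162). From stage 9 to 10, Hspa2, Hspa4l and Hspa9 were higher (17.2% of all genes) and Hspa5 was lower (15.3%). From stage 6 to 7, Hspa5 was higher (2.02% of all genes) and Hsp90ab1 lower (4.8%), and from stage 7 to 8, Hsp90ab1 was higher (7.96%) and Hspa9 lower (6.37%). From stage 3 to 4, Hspa5 was higher (5.31%) and no member lower (4.27%). No member was called at the steps from 1 to 2, 2 to 3, 4 to 5, 11 to 12 and 12 to 13, where 18.4%, 7.1%, 2.76%, 2.14% and 6.25% of all genes were called. Leaving out the 16 cells rich in spermatid or Sertoli markers kept all 25 step calls and all 69 calls against stage 1.

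Levels were also set against the ERCC spike-in RNA added to each well. Nuclear UMIs per spike-in UMI fell from 82.2 at stage 1 to 19.6 at stage 8 and reached 247 at stage 13. On this scale Hspa2 at stage 13 was 5.73 ± 0.74 above stage 1 in log2 (SD, n = 3), or 53.0 times, where all nuclear UMIs together were 1.69 ± 0.45 above. Hspa4l was 4.2 ± 0.30, Hsp90aa1 2.65 ± 0.79, Hspa9 1.99 ± 0.48 and Hspa4 1.09 ± 0.34 above stage 1. Hspa8 was at -0.98 ± 0.52 and thus below stage 1 although the total was higher, whereas Hsp90ab1 and Hsf2 were at -0.24 ± 0.49 and -0.04 ± 0.20. Hspa5 was 2.28 ± 0.44 above stage 1 at stage 9 and 2.22 ± 0.43 at stage 10, which differ by less than their SD, whereas by share it fell between these stages. Before stage 9 the mean of Hspa2 was within 0.64 of its stage 1 level on this scale. At stages 4 to 8, where its share was called higher, all nuclear UMIs per spike-in UMI were below stage 1, by a mean that reached -1.99 at stage 8. Of the 69 calls against stage 1, 46 were kept on the spike-in scale and 13 turned to the other direction.

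**Figure D5:**
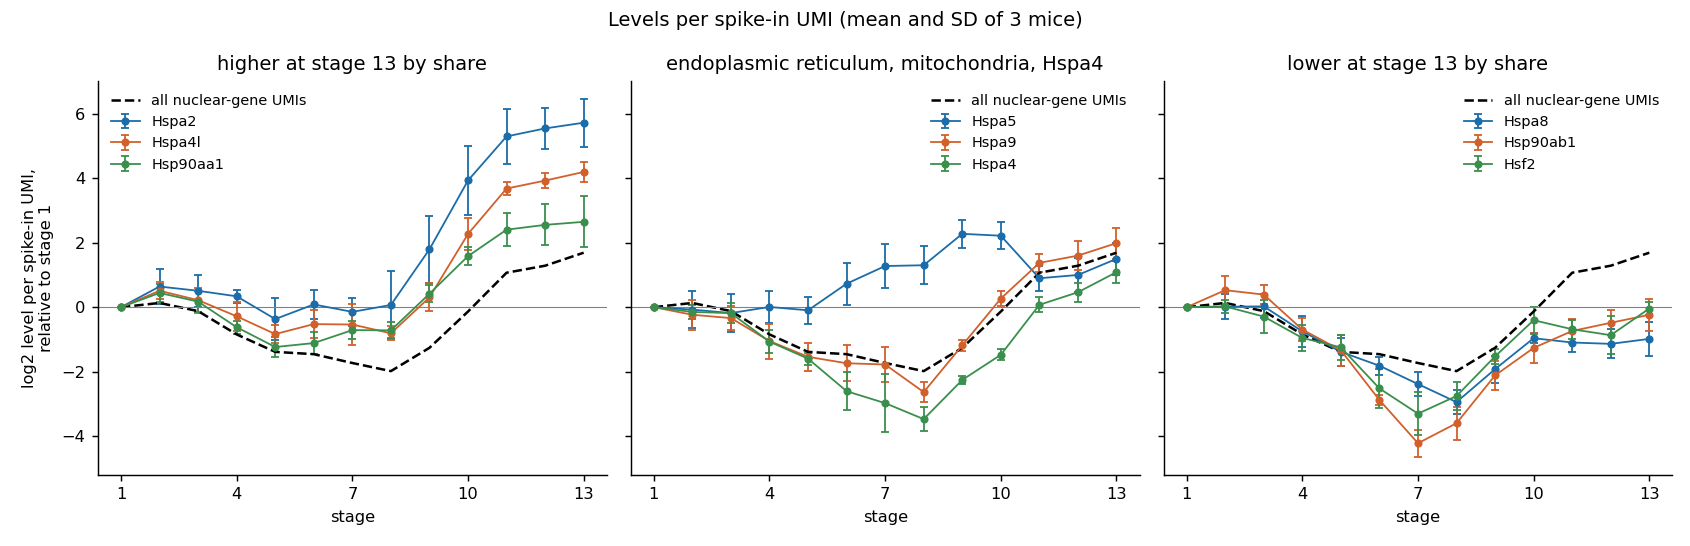
log2 level per spike-in UMI relative to stage 1 (vertical axis) by stage, as mean and SD of 3 mice, for 3 groups of members; the dashed black line gives all nuclear-gene UMIs. Hspa2 ends at 5.73 and Hspa4l at 4.2, both above the line at 1.69, and Hspa8 ends at -0.98.

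Other genes of the system are described from fixed lists, latest against earliest stage, with the median of all genes at 0.00. The lists overlap: that of immediate early and dissociation genes shares Hspa1a, Hspa1b and Dnajb1 with other lists. Bag6 counts both as an adaptor gene and as a gene tied to HSPA2. Of all 11156 genes, 37.3% were higher and 37.3% lower by share, and 6954 were higher and 2205 lower per spike-in RNA; the counts of the HSP90 co-chaperones and chaperonins lie near the first shares, and nothing is read from them. The HSP40 co-chaperones, which bring clients to HSP70, had 13 of 22 tested genes higher and 0 lower (median log2 difference 0.88). This was 13 higher and 6 lower with median-ratio size factors, and 22 higher and 0 lower per spike-in RNA. Dnajb3 (3.38 ± 0.21) and Dnajc5g (3.93 ± 0.28) had the smallest adjusted p (edgeR, 1.07e-17 and 8.95e-16). Of the nucleotide exchange and adaptor genes of HSP70, 8 of 12 were higher, led by Bag5 (2.78 ± 0.30) and Bag6 (1.11 ± 0.14), and 3 lower, led by Grpel2 (-2.28 ± 0.23) and Bag4 (-0.88 ± 0.21). These were 6 and 3 with median ratios and 10 and 1 per spike-in RNA, where Bag4 was not lower. Of the genes tied to HSPA2 in spermatocytes, 7 of 9 were higher and 2 lower (6 and 2 with median ratios, 7 and 2 per spike-in RNA). Shcbp1l (3.40 ± 0.18) and Sycp3 (1.85 ± 0.14), a component of the synaptonemal complex, were higher, and Ccnb1 (-2.80 ± 0.28), which encodes cyclin B1, and Cdc25c (-3.70 ± 0.39) were lower.

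Of 9 other HSP70, HSP110 and HSP90 genes tested, 5 were higher and 3 lower (7 and 2 per spike-in RNA). Trap1, the mitochondrial HSP90, rose by 0.93 ± 0.16 (edgeR, adjusted p = 2.74e-06), and Hsp90b1, the HSP90 of the endoplasmic reticulum, rose by 0.76 ± 0.13 (adjusted p = 2.91e-06). By mean CPM, Hsp90b1 went from 568 ± 89.0 in stage 1 to 1720 ± 450 in stage 9 and 727 ± 130 in stage 13 (SD, n = 3), so it too was high at the stage where Hspa5 peaked. The stress-inducible Hspa1a (-7.22 ± 0.72) and Hspa1b (-4.02 ± 0.46) fell (edgeR, adjusted p = 1.64e-11 and 3.74e-10). They fell with other immediate early and dissociation genes such as Jund (-4.62 ± 0.29) and Egr1 (-5.41 ± 0.34). In that list, which itself includes Hspa1a and Hspa1b, 9 of 11 tested genes were lower. The other 2, Dnajb1 (1.93 ± 0.17) and Jun (0.86 ± 0.39), were higher (9 lower and 1 higher with median ratios). That list summed to 846 CPM at stage 1 and to 278 to 626 CPM at later stages, and its part in the stage 1 levels of the members was not tested.

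All 5 small heat shock protein genes tested, of 9 listed, were higher (4 of them with DESeq2), led by Hspb6 (3.37 ± 0.24) and Hspb9 (5.53 ± 0.60). Of the heat shock factors and their binding protein, Hsf5 (4.36 ± 0.25) and Hsbp1 (2.02 ± 0.18) were higher and the third gene tested, Hsf1, was not called. Of 13 genes of folding and stress in the endoplasmic reticulum, 9 were higher, led by Clgn (3.87 ± 0.20), a chaperone of male germ cells, and Sdf2l1 (3.70 ± 0.26), and 2, Pdia4 (-2.25 ± 0.29) and Xbp1 (-1.43 ± 0.27), were lower (8 and 3 with median ratios, 11 and 1 per spike-in RNA). Of 20 HSP90 co-chaperones, 8 were higher, led by Cdc37l1 (2.39 ± 0.23) and Ppp5c (2.04 ± 0.23), and 6 lower, led by Fkbp6 (-1.63 ± 0.14) and Fkbp5 (-2.93 ± 0.33); with median ratios this was 7 and 9, and per spike-in RNA 16 and 2. Of 11 chaperonin genes, 5 were higher and 4 lower, against 4 and 4 with median ratios, 4 and 6 with DESeq2 and 9 and 2 per spike-in RNA. The testis subunit gene Cct6b (4.72 ± 0.30) and Tcp1 (1.74 ± 0.16) rose, whereas Hspe1 (-3.53 ± 0.15) and Hspd1 (-4.27 ± 0.20), which encode the mitochondrial chaperonin, fell (edgeR, adjusted p = 1.58e-22 and 5.84e-21 for the last pair). Hspa9, the mitochondrial HSP70, thus rose between the same stages at which both mitochondrial chaperonin genes fell.

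As a description of likeness, each gene was centred within each mouse and correlated over the 39 sums of mouse and stage, which share libraries and depth. Among members, Hspa2 followed Hspa4l most closely (Pearson's r = 0.98) and ran against Hspa8 (r = -0.84), Hspa4 ran against Hspa5 (r = -0.78), and Hsp90ab1 and Hsf2 ran together (r = 0.79). Of 11147 other genes, with a median r of 0.01, those most like Hspa2 were Ybx2 (0.983), Rsph1 (0.981), Hsf5 (0.981), Wdr35 (0.980) and Ccdc104 (0.972). Among those most like Hspa4l were Ybx2 (0.982) and Pdha2 (0.976). Hspa1l was too low to be included.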

How the data were processed

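The authors deposited whole-number counts of UMIs and of reads for each gene in each well. They also deposited a transcripts table of estimated counts, which equals the UMI count corrected for tag collisions (within 1% for at least 99.9999% of values). BWA 0.7.10 and mm10 are named in the submitters' processing notes; annotation and counting tool are not given in the sources used here. UMI counts were used; transcripts (rounded) and reads were alternatives. UMIs summed to 16682671, 5866174 and 18032562 over the mice. Members and gene lists were chosen with earlier results of these data known; named list genes are the 2 with the smallest adjusted p in each direction, and those most like Hspa2 and Hspa4l the 5 and 3 highest by Pearson's r, of which 1 is not reported here.

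Wells with at least 1000 UMIs were aligned across mice (Seurat 5.3.0 anchors) and clustered with scanpy 1.11.5 (Leiden resolution 1, 15 neighbours) on 1500 variable genes of odd-numbered autosomes without members or listed genes. Clusters of low depth (median under that of all cells divided by 3) or with few cells were left out, and the rest ordered by diffusion pseudotime. Doublets were not called, as each well received 1 sorted cell. Counts were summed per mouse and stage (39 sums of at least 10 cells) and fitted in edgeR 4.0.16 (R 4.3.3; TMM, filterByExpr, quasi-likelihood, stage and mouse as block, Benjamini-Hochberg over all genes). The block rests on shared animals: deviations of sums from stage means correlated by 0.549 within mice (lowest 0.191) and by -0.263 between mice. The centring pushes the value between mice down, because the deviations of the mice at a stage cancel. That value adds nothing to the value within mice, in which protocol and mouse cannot be told apart. Ratios (pseudocount 0.5) had exact permutation tests. On simulated counts, latest against earliest, the fit recovered 57% of 100 genes changed 2-fold and 85% of 100 changed 4-fold. It made 5 false calls among the 9785 genes left unchanged. Between the same stages of the real data, 37.3% of genes were higher and 37.3% lower. The simulated counts held no mouse effect, no tag collisions and no change at stages other than the latest. Error from these or from the choice of scale was not tested on them. DESeq2 1.42.0 and the settings named in the closing section were alternatives; collision correction, the cells rich in other markers and the gate-sorted library were added after the data were seen. Promoters come from RefSeq (GRCm38.p6), positions from GENCODE (GRCm38); both match the build mm10.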

Additional observations from a re-analysis of the deposited data

Results flagged for a closer look

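The 472 wells with fewer than 1000 UMIs, which entered no comparison, held 179485 UMIs in all (median 342 per well) and gave member signal above the 3 counts that a count of 0 allows. Summed over these wells, Hsp90aa1 had 1209 UMIs, Hspa2 had 288, Hspa5 had 200 and Hsp90ab1 had 152. Hspa8 had 100 UMIs there, Hspa4l had 97, Hspa4 had 47, Hspa9 had 39 and Hsf2 had 24, the last all in mouse 1. These 24 UMIs were 269 CPM in those wells, against 31.7 CPM for Hsf2 in the kept cells of mouse 1. Hspa1l had 0 UMIs in these wells.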

How the results depend on the processing

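Under 18 alternatives, Hspa2 (4.03 to 5.63 in log2, latest against earliest stage), Hspa4l (2.67 to 4.22), Hsp90aa1 (1.10 to 2.71), Hspa9 (0.45 to 1.99) and Hspa8 (-2.56 to -0.98) kept their direction and call, and all 9 tested members changed over the stages under each. The number of members called higher was 4 to 6 (4 to 5 with a mouse left out) and lower 1 to 4 (3 to 4 with a mouse left out); it was 1 lower with spike-in RNA as the library size, where Hsp90ab1 (-0.25) and Hsf2 (-0.07) were not called. With a mouse left out, Hspa2 was 4.03 to 4.56 and the Hspa2 to Hspa8 ratio 6.32 to 7.0, that of Hspa4l to Hspa4 2.94 to 3.20 and that of Hsp90aa1 to Hsp90ab1 2.57 to 3.41. This last ratio was not called without mouse 2 (2.57), without mouse 3 (2.67) or without the gate-sorted library of mouse 3 (2.67); fewer sums enter these tests. Hspa4 was called lower under 9 alternatives (-0.54 to -0.28) and higher with spike-in RNA (1.09). Hspa5 was -0.031 with DESeq2 and with median-ratio size factors, -0.014 with the transcripts table, -0.0027 with wells of at least 3000 UMIs and -0.069 without mouse 2, never called; the cause was not tested. It was called higher with spike-in RNA (1.47), reads (0.37), sums of at least 20 cells (0.57) and without mouse 1 (0.39).

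Without the replicate block (mouse left out of the model) Hspa2 was 4.21 and the latest-stage calls stood at 4 higher and 3 lower, whereas 12 of 25 step calls and 60 of 69 calls against stage 1 were kept. Leaving out mouse 1, 2 or 3 kept 22, 17 and 17 steps, and the spike-in scale kept 18. With sums of at least 20 cells only mouse 3 had both end stages, so its ratios (6.08, 3.31 and 2.97) have no test. Stages 7 and 8 have the fewest UMIs, and low members such as Hsf2 and Hspa1l are least precise there.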
